A study of Mus musculus with 16 samples.

Results

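The transcriptome of the control atrium was compared with that of the control ventricle, within each of 4 adult mice. The 8 libraries are the control part of a series of 16, and the members of the comparison were the genes that reached 1 CPM (count scaled to the sum of its column) in at least 4 of these 8 libraries. This kept 14034 of the 16118 genes in the deposited table and left 2084 untested. In its 4th highest library the lowest gene kept stood at 1.001 CPM and the highest gene left out at 0.989. A gene under 1 CPM in all 4 libraries of a chamber passed through the other chamber alone, so the filter largely set its direction. All 8 mice of the series were adult males from one set of littermates, and all were homozygous for floxed alleles of 2 genes (Meis1flox/flox; Meis2flox/flox), which encode the homeodomain transcription factors MEIS1 and MEIS2. The controls, mice CDA287, CDA292, CDA293 and CDA294, lacked the Cre transgene (alpha-MHC-MerCreMer wt/wt). The idKO mice, CDA288 to CDA291, carried it (alpha-MHC-MerCreMer tg/wt), so that tamoxifen can activate the recombinase in cells that use the alpha myosin heavy chain promoter, which are cardiomyocytes. The control atrium and ventricle therefore share the floxed alleles and the absence of Cre. Hearts were collected 2 weeks after tamoxifen induction, rinsed of blood through a cannula, freed of the outflow tract and split into atria and ventricles. Left and right chambers are not separated in the labels.

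Atria and ventricles are built from different cardiomyocytes. Atrial muscle contracts earlier and more briefly, carries the pacemaker and much of the conduction tissue, and stores natriuretic peptides in dense secretory granules. Ventricular muscle does the pumping work, has the denser transverse tubules and mitochondria, and lives mainly on fatty acids. Each chamber uses its own isoforms of the myosin light chains and of several ion channel subunits, under chamber transcription factors such as TBX5 and COUP-TFII (Nr2f2) in atria and IRX4 in ventricles. The comparison asks which genes separate the chambers of the adult control heart, and by how much.

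Values are normalised read counts, that is, reads in CPM of the effective library size that the authors used for scaling. A log2 difference is atrium minus ventricle on the log2(value + 1) scale, fitted over the 4 mice, so a positive sign means higher in atrium, and this scale understates the change of low genes. Values of single libraries are listed in the order of mice CDA287, CDA292, CDA293 and CDA294, and means carry the SD over 4 libraries. The atrial libraries held 13.1 to 18.7 M reads and the ventricular ones 15.4 to 21.8 M. The atrial libraries were more evenly spread over genes: the first 50 percent of reads came from 272 to 337 genes in atria and from 69 to 82 in ventricles. Outside the mitochondrial genome the chambers were closer, with the 20 highest genes holding 18.1 ± 0.733% of reads in atria and 19.2 ± 0.258% in ventricles. The mitochondrial genome gave 17.2 ± 0.768% of reads in atria and 30.9 ± 0.742% in ventricles, higher in the ventricle of 4 of 4 mice (exact sign-flip permutation p = 0.125, n = 4 pairs, which is the smallest that 16 sign assignments allow). The effective library size that the authors scaled by was 0.947 of the reads in atria and 0.639 in ventricles on average, so column sums differ between chambers. Rescaling every library to the same sum moved the median log2 difference of all genes by 0.54 toward the atrium, and rescaling to the same sum outside the mitochondrial genome moved it by 0.29. Differences smaller than these shifts depend on the scaling, and counts over a gene list are given again under one of these rescalings where the balance of the list moved. Such counts are to be read beside those of all 14034 genes tested, since the balance of all genes moves too. At the same sum 9765 of all genes were higher in atria and 1476 in ventricles. Outside the mitochondrial genome the counts were 7283 and 2458. In bulk tissue, fewer cells of a type and less RNA per cell cannot be told apart.

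The labelled chambers matched their defining genes. All 6 atrial markers (Myl4, Myl7, Sln, Nppa, Bmp10 and Mybphl) were higher in each atrium than in any ventricle, and all 6 ventricular markers (Myl2, Myl3, Irx4, Fhl2, Kcnip2 and Myh7) were higher in the ventricle of each mouse than in its atrium. The genes shared by both kinds of muscle, such as the alpha cardiac myosin heavy chain Myh6, were high in both. The level in the low chamber varied by gene: the ventricular libraries held Myl7 at 0.0891 to 0.307% and Bmp10 at 0.0134 to 0.0247% of the same mouse's atrial level, and the atrial libraries held Myl3 at 1.23 to 1.42% and Acta1 at 0.314 to 0.849% of the ventricular level. It was higher for Fhl2 and Kcnip2, whose atrial levels were 14.9 to 20.1% and 10.54 to 13.1% of the ventricle.

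Most genes differed between the chambers. Of the 14034 genes tested, 4179 (29.8%) were higher in atrium and 4479 (31.9%) were higher in ventricle at a limma adjusted p under 0.05, together 8658 (61.7%). For 8328 of these the difference had the same sign in 4 of 4 mice, and for 330 it did not. The 4 atrial and the 4 ventricular values did not overlap for 7277 genes (51.9%). Most of the called differences were small, with a median size of 0.61 on the log2 scale, and a second test asked for a change beyond 2-fold: 683 genes (4.87%) passed it in the atrial direction and 446 (3.18%) in the ventricular one. Counting called genes by size, 359 were at least 4-fold higher in atrium against 122 in ventricle, 54 against 16 were at least 16-fold higher, and 14 against 4 at least 64-fold. The balance of all called genes rests on the scaling: 9765 were higher in atrium and 1476 in ventricle after rescaling to the same sum, and 7283 and 2458 after rescaling outside the mitochondrial genome. Under those settings the counts beyond 2-fold were 1390 and 161, and 957 and 248. Each rescaling tried moved the median log2 difference toward the atrium, so none could test the excess of atrial genes among large differences. With a pseudocount of 5 that excess was smaller.

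**Figure D1:**
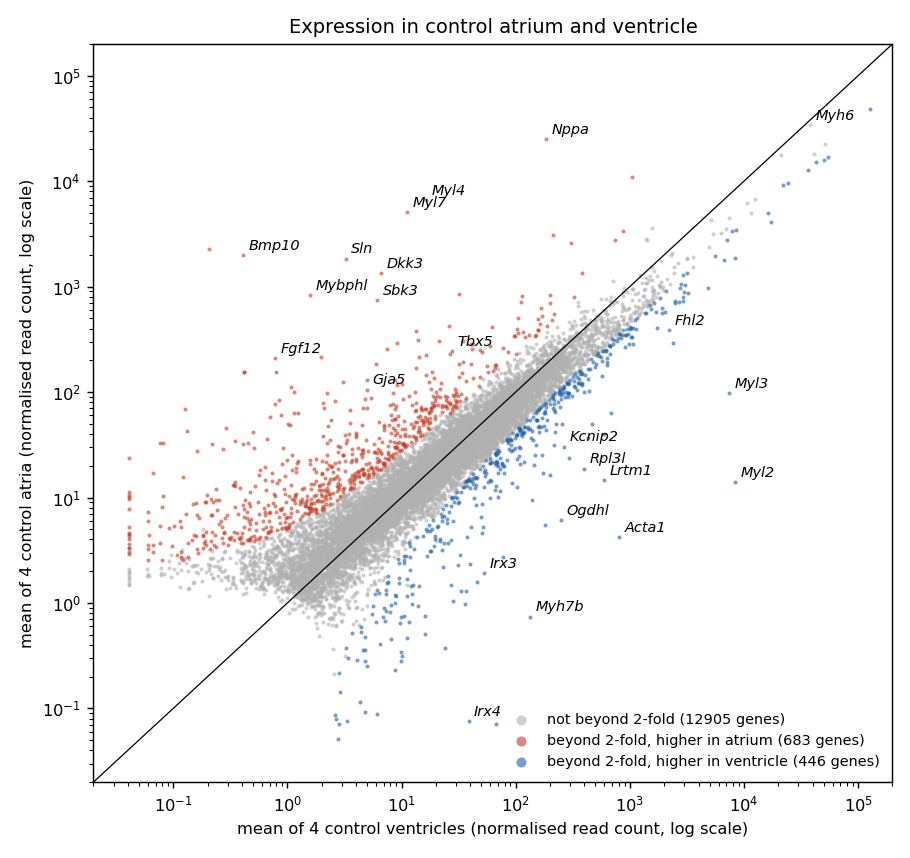
Each point is 1 of the 14034 genes tested, with its mean normalised read count over 4 control ventricles on the horizontal log axis and over 4 control atria on the vertical log axis; red points are the 683 genes beyond 2-fold higher in atrium, blue points the 446 higher in ventricle, and the line marks equal values. Nppa, Myl7, Myl4 and Bmp10 stand far above the line and Myl2, Acta1 and Myh7b far below it, while Myh6 lies close to it.

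The hormone gene Nppa gave the most RNA of any nuclear gene per length in atria. It encodes atrial natriuretic peptide, which atrial myocytes release when stretched and which lowers blood volume. Per kilobase of exon and outside the mitochondrial genome and its copies, Nppa (chromosome 4, 148000722 to 148002079, GRCm38) stood at 29068 ± 3452 in atria, where it ranked first, and at 214 in ventricles, where it ranked 242nd. Its normalised read counts were 20734, 27316, 26059 and 26466 in the 4 atria and 159, 218, 189.6 and 174 in the 4 ventricles. The lowest atrium was far above the highest ventricle, a 136-fold difference of means (log2 difference 7.08 ± 0.05 SE, limma adjusted p = 1.06e-17).

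Bmp10 showed the largest difference of any gene with a full name. It encodes a bone morphogenetic protein secreted by atrial myocytes. Bmp10 (chromosome 6, 87428994 to 87437677) measured 1907, 1669, 1941 and 2376 in atria and 0.449, 0.412, 0.453 and 0.318 in ventricles (log2 difference 10.44 ± 0.09 SE, limma adjusted p = 1.47e-17). The 4 ventricles together held 18 reads of Bmp10, against 121579 in the atria, and no ventricle came near any atrium.

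Other genes among the 15 largest atrial differences fell into a few roles. Sarcolipin (Sln), the small peptide that slows the calcium pump of the sarcoplasmic reticulum, measured 1835 ± 72.3 in atria and 3.25 ± 1.59 in ventricles (8.85 ± 0.16 on the log2 scale). Dkk3, a secreted relative of the Dickkopf Wnt antagonists, measured 1343 ± 216 in atria and 6.62 ± 0.946 in ventricles. Fgf12, an intracellular FGF homologue that binds sodium channels, measured 210.2 ± 12.5 in atria and 0.783 ± 0.422 in ventricles. Sbk3, a kinase of the SH3-binding domain family, measured 748 ± 84.9 in atria and 6.15 ± 1.39 in ventricles, and Tmem163, a zinc transporter, 156 ± 11.5 in atria and 0.418 ± 0.167 in ventricles. Hamp, which encodes the iron hormone hepcidin, measured 69.0 ± 26.0 in atria and 0.126 ± 0.0711 in ventricles, with 4 reads in all 4 ventricles. Cilp2, a cartilage matrix protein, the cytosolic carbonic anhydrase Car3 and Lmntd1 had log2 differences of 6.78, 6.01 and 5.81. For each of these 9 genes the lowest atrium was above the highest ventricle. The immunoglobulin light chain gene Igkc also belongs to the 15, at a log2 difference of 6.21, and is described with the lymphocyte markers.

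The regulatory light chain gene Myl2 showed the largest ventricular difference. Myl2 (chromosome 5, 122100951 to 122113472) measured 29.0, 22.01, 3.28 and 1.46 in atria and 8341, 8177, 8857 and 8208 in ventricles (log2 difference -9.83 ± 0.43 SE, limma adjusted p = 3.10e-10). All 4 ventricles were alike, and the atria split, since those of mice CDA287 and CDA292 held several times more Myl2 than those of mice CDA293 and CDA294. As a share of the same mouse's ventricle the atria held 0.347, 0.269, 0.0370 and 0.0178%, while for the essential light chain gene Myl3 the same shares were 1.36, 1.23, 1.31 and 1.42%, with no such split. Without mouse CDA294 the log2 difference was -9.20. The amount of ventricular tissue in each atrial sample was not tested.

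Skeletal alpha actin, Acta1, came second among the ventricular genes. Acta1 (chromosome 8, 123891769 to 123894751) measured 1.97, 8.75, 3.63 and 2.55 in atria and 627, 1031, 943 and 629 in ventricles (log2 difference -7.40 ± 0.12 SE, limma adjusted p = 2.59e-14). Every ventricle was far above every atrium. The other large ventricular differences were in Myh7b, a slow myosin heavy chain that hosts a microRNA, at 0.743 ± 0.451 in atria and 134 ± 10.54 in ventricles, in the membrane protein gene Lrtm1 at 14.6 ± 2.80 in atria and 596 ± 45.6 in ventricles, and in Ogdhl, a relative of the oxoglutarate dehydrogenase subunit, at 6.06 ± 2.07 in atria and 248 ± 36.0 in ventricles. Tesc, a calcium-binding regulator of sodium-proton exchange, had a log2 difference of -4.84, the Z-disc protein gene Myot one of -4.43, and Rpl3l, the muscle form of ribosomal protein L3, one of -4.34. Mpped2, Lrrc15, Epn3 and Ptgds, the prostaglandin D synthase, completed the 15 largest among genes with full names, at -4.19, -4.25, -4.001 and -3.998. None of these 10 genes overlapped between chambers. Of genes with predicted names, Gm34302 and Gm36827 had log2 differences of -5.95 and -4.26 and were picked out after their values were seen. Gm34302 had 2 reads in the 4 atria and 3289 in the 4 ventricles, and per effective library was 2029 times higher (95% exact Poisson interval 561 to 16763) in ventricles.

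**Figure D2:**
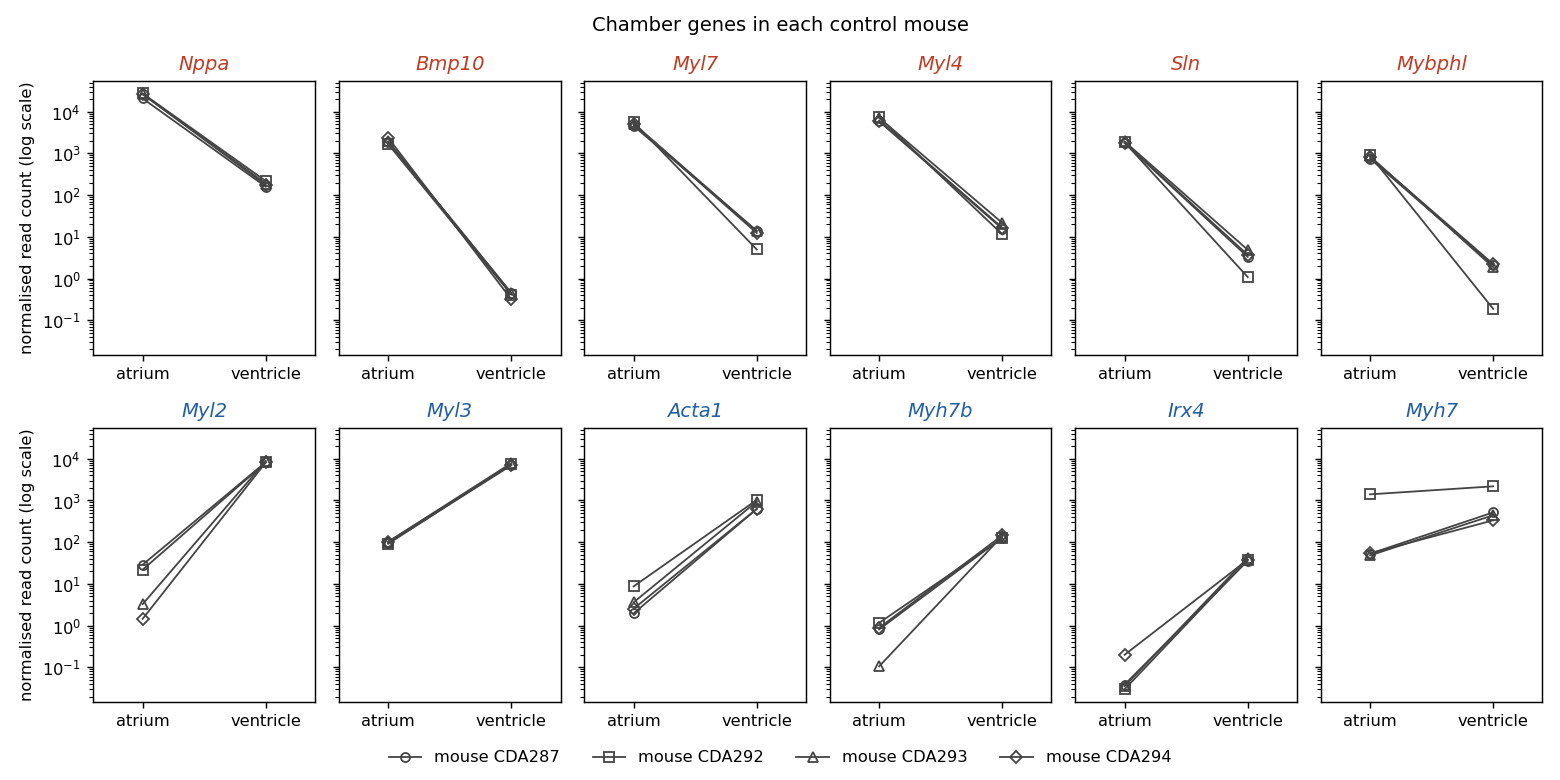
Normalised read counts (log axis) of 12 chamber genes, with a line joining the atrium and the ventricle of each of 4 control mice. The 6 atrial genes in the upper row fall from atrium to ventricle in every mouse and the 6 ventricular genes in the lower row rise, with a wide spread of Myl2 among atria and a high Myh7 in both chambers of mouse CDA292.

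The sequences just before the transcription starts of chamber genes are shown for 3 genes of each chamber, all beyond 2-fold and described in the results, and were chosen after their values and matches were seen. Each is the 250 bases before the RefSeq start (GRCm38.p6), on the strand of the gene, and capitals mark matches to the motifs searched, on either strand.
Nppa, chr4:148000472-148000721, plus strand: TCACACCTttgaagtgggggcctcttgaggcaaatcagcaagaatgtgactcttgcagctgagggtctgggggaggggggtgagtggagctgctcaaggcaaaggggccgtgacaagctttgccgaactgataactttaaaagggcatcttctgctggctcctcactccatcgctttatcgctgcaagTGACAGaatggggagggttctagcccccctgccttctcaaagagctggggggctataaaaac
Bmp10, chr6:87428744-87428993, plus strand: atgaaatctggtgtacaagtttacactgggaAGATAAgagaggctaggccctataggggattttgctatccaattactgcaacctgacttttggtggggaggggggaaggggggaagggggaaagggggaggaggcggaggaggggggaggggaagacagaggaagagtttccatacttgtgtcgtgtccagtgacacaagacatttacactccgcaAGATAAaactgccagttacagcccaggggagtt
Myl7, chr11:5898783-5899032, minus strand: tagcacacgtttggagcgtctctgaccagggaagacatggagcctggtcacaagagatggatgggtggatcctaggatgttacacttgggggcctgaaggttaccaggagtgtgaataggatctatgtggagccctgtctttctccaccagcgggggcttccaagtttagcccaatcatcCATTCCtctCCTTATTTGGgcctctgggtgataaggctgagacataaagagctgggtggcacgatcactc
Myl3, chr9:110763428-110763677, plus strand: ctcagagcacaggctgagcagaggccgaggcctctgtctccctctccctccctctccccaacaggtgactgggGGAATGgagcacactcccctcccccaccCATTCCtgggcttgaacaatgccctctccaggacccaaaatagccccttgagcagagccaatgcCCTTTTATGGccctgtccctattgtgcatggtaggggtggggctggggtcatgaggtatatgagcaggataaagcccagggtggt
Acta1, chr8:123894776-123895025, minus strand: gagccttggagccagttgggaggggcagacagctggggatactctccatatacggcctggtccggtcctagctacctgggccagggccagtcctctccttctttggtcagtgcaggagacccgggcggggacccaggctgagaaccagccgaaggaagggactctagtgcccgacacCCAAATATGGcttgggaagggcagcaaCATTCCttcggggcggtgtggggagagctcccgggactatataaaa
Kcnip2, chr19:45816064-45816313, minus strand: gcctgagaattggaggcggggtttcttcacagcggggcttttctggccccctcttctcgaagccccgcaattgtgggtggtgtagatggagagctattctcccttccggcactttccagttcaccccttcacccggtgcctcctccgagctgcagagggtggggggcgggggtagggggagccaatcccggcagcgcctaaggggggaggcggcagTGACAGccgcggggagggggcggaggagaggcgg
In the Nppa window the capitals mark a T-box site (AGGTGTGA, on the other strand) that begins 250 bases before the start and a MEIS core (TGACAG) at 62 bases. The Bmp10 window has 2 GATA words (AGATAA), at 219 and 33 bases. The Myl7 window has a TEAD word (CATTCC) at 70 bases and, after 3 bases, a CArG box, the site of serum response factor, at 61 bases. The Myl3 window has TEAD words at 177 bases, on the other strand, and at 149 bases, and a CArG box at 85 bases. The Acta1 window has a CArG box at 73 bases and a TEAD word at 46 bases, and the Kcnip2 window a MEIS core at 34 bases. The CArG box, a landmark of striated muscle promoters, lay before genes of both chambers.

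Across the table of 32851 RefSeq windows of this length, 15.9% held the MEIS core, 12.6% the TEAD word, 9.99% the GATA word, 2.92% a MEF2 site, 1.47% a CArG box and 1.12% the T-box site. Over the 13278 windows of 10364 tested genes the shares were 14.1% for the MEIS core, 11.04% for the TEAD word, 6.01% for the GATA word, 1.84% for the MEF2 site, 1.17% for the CArG box and 0.685% for the T-box site. Of the genes beyond 2-fold higher in atrium 463 of 683 had windows, 590 in all, and 333 of 446 ventricular genes had 431. The MEIS core was in 15.6% of the atrial and 17.2% of the ventricular windows, the TEAD word in 13.4% and 10.7%, the GATA word in 7.46% and 9.74%, the MEF2 site in 1.53% and 4.41%, the CArG box in 1.69% and 2.78% and the T-box site in 1.36% and 0.232%. The other motifs searched, an ERR word (TCAAGGTCA), an NKX2 word (CACTTGA) and a COUP-TF repeat, were in 0.264, 1.76 and 0.0226% of tested windows and have no match in the 6 windows shown. No test was made on these shares. A match is a string of letters in the DNA and not evidence of binding.

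Natriuretic peptide and secretory granule genes were higher in atria almost throughout. Of the list, 21 of 26 tested members were higher in atria, 2 were higher in ventricles and 3 were not called, with a median log2 difference of 1.17 against 4.67e-04 over all genes tested. Rescaling to the same sum gave 23 higher in atria and 2 in ventricles. The brain natriuretic peptide gene Nppb, 13516 bases from Nppa on chromosome 4, was higher in atria by far less than its neighbour, at 347 ± 69.0 in atria and 129.9 ± 21.3 in ventricles (log2 difference 1.401 ± 0.10 SE, limma adjusted p = 2.91e-08). Nppa thus made up 98.5% ± 0.141 in atria and 56.3% ± 3.88 in ventricles of the pair per kilobase of exon. The enzyme that cleaves the ANP precursor, Corin, differed little, at 591 ± 50.2 in atria and 399.5 ± 39.3 in ventricles. Pam, an amidating enzyme of peptide hormones and a major protein of the atrial granule membrane, measured 10812, 11404, 10372 and 11561 in atria and 1028, 1083, 996 and 1045 in ventricles. Each atrium held about 10 times the Pam of its ventricle (log2 difference 3.41 ± 0.05 SE, limma adjusted p = 9.64e-15).

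Granule release genes followed. All 10 tested granule proteins were higher in atria. For members without a ventricular read, such as Syt1 and Snap25, the filter had already set this direction. Syt1, a calcium sensor of vesicle fusion, had 676 reads in the 4 atria and none in the 4 ventricles, which is at least 183-fold higher when 3 reads over the group stand for the ventricular limit. The fusion protein gene Snap25 had 611 reads and none, and was at least 165-fold higher by the same limit. Both are also nerve terminal genes, and they are taken up again with the neural markers. Chromogranin B (Chgb), a granule core protein, was low in both chambers, at 2.65 ± 0.294 in atria and 0.640 ± 0.308 in ventricles. Rab3b, a vesicle GTPase, measured 4.83, 20.7, 5.54 and 6.67 in atria and 0.368, 0.187, 0.553 and 0.601 in ventricles, with the atrium of mouse CDA292 well above the others. On the receptor side, Npr3, which clears natriuretic peptides, measured 286.8 ± 19.7 in atria and 40.3 ± 3.62 in ventricles (log2 difference 2.80 ± 0.05 SE, limma adjusted p = 4.10e-14). Among 7 tested receptors and effectors, 5 were higher in atria and none in ventricles.

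Light chains carried the largest sarcomere differences. The regulatory light chain gene Myl7 measured 4544, 5589, 5181 and 4992 in atria and 13.9, 4.98, 13.7 and 12.3 in ventricles (log2 difference 8.78 ± 0.18 SE, limma adjusted p = 2.36e-13). The essential light chain gene Myl4 measured 5875, 7273, 7123 and 6119 and 15.6, 11.5, 21.6 and 16.6 (log2 difference 8.599 ± 0.10 SE, limma adjusted p = 1.31e-15). For both genes the atria were alike and the ventricle of mouse CDA292 was the lowest. Per kilobase of exon, Myl7 made up 99.9% ± 0.0872 in atria and 0.438% ± 0.160 in ventricles of the Myl7 and Myl2 pair, and Myl4 96.7% ± 0.392 in atria and 0.0974% ± 0.0219 in ventricles of the Myl4 and Myl3 pair. The partner of Myl4, Myl3, stood at 97.7 ± 5.34 in atria and 7360.0 ± 381 in ventricles. These pair shares do not depend on how libraries are scaled, but they do depend on the annotated exon length of each gene. The list of light chains held 10 tested genes, of which 6 were higher in atria and 3 in ventricles. One of the 6 was Myl1, the fast skeletal essential light chain, at 225 ± 104 in atria and 16.4 ± 8.42 in ventricles.

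Heavy chains differed less, apart from Myh7b, described above with the large ventricular differences. The adult mouse heart is built on alpha myosin heavy chain, and Myh6 was not called, at 34098 ± 2887 in atria and 37758 ± 2151 in ventricles (log2 difference -0.15 ± 0.10 SE, limma adjusted p = 0.206), although it was called lower in atria by DESeq2 and voom and higher in atria after rescaling to the same sum (0.42). The slow beta chain gene Myh7 measured 53.1, 1404, 48.3 and 54.3 in atria and 519, 2186, 443 and 335 in ventricles. It was higher in the ventricle of 4 of 4 mice (log2 difference -2.42 ± 0.30 SE, limma adjusted p = 9.25e-06), but both libraries of mouse CDA292 stood far above those of the other mice, and without that mouse the log2 difference was -3.01. Per kilobase, Myh6 made up 99.2% ± 1.45 in atria and 98.2% ± 1.84 in ventricles of the pair. Across the whole thick filament list, 14 of 36 tested members were higher in atria, 18 were higher in ventricles and 4 were not called. After rescaling to the same sum the counts were 23 higher in atria and 12 in ventricles, so that the majority turned with that of all genes. The median of the list relative to that of all genes was -0.18 before and -0.14 after. Mybphl, a short relative of myosin-binding protein C, measured 745, 896, 851 and 823 in atria and 2.08, 0.187, 1.86 and 2.23 in ventricles (log2 difference 8.42 ± 0.20 SE, limma adjusted p = 6.70e-13). The ventricle of mouse CDA292 was again the lowest, and no ventricle reached 1% of its atrium. The light chain kinase genes differed less: the log2 difference was 0.15 for Mylk3, the cardiac kinase, and -0.76 for Mylk4. The call of Mylk3 was lost without mouse CDA287, CDA292 or CDA294 (log2 differences 0.12, 0.09 and 0.16). Myom2, an M-band protein, had a log2 difference of -0.20, which turned to 0.37 after rescaling to the same sum.

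In the thin filament, 8 of 22 tested members were higher in atria, 11 were higher in ventricles and 3 were not called. After rescaling to the same sum 11 were higher in atria and 10 in ventricles, which turns the majority. The median of the list relative to that of all genes was -0.22 before and -0.19 after. Actc1, cardiac actin, made up 99.9% ± 0.0355 in atria and 93.7% ± 1.24 in ventricles of the Actc1 and Acta1 pair per kilobase. The coding parts of these actins are nearly alike, so reads may have been divided between them by the authors' counting. Beta tropomyosin (Tpm2) was the largest atrial difference, at 213 ± 8.92 in atria and 14.2 ± 2.08 in ventricles (log2 difference 3.82 ± 0.07 SE, limma adjusted p = 3.83e-14). It made up 8.69% ± 0.787 in atria and 0.276% ± 0.0464 in ventricles of the Tpm2 and Tpm1 pair. Troponin C (Tnnc1) was higher in ventricles, at 1041 ± 143 in atria and 3048 ± 115 in ventricles (log2 difference -1.56 ± 0.06 SE, limma adjusted p = 6.23e-11). The slow skeletal troponins were low: Tnni1 measured 3.17 ± 0.956 in atria and 1.11 ± 0.769 in ventricles, and Tnnt1 11.6 ± 0.253 in atria and 14.9 ± 1.65 in ventricles. The small ventricular lead of Tnnt1 (-0.33 ± 0.11) was not called without mouse CDA287 or CDA293 (-0.34 and -0.25). Lmod3, a leiomodin that sets thin filament length, had a log2 difference of -1.75.

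Z-disc and costamere genes were mostly higher in ventricles. Here 5 of 42 tested members were higher in atria, 30 were higher in ventricles and 7 were not called, with a median of -0.62. This lead went to an even split after rescaling to the same sum, at 16 higher in atria and 16 in ventricles. Relative to the median of all genes, that of the list was -0.62 before and -0.58 after. The largest differences kept their side. Myotilin (Myot), an actin cross-linker, measured 2.71 ± 0.775 in atria and 78.2 ± 9.49 in ventricles, and Ankrd23, a titin-binding ankyrin repeat protein, 36.7 ± 7.05 in atria and 431 ± 49.1 in ventricles. Fhl2, a LIM protein of the Z-disc and nucleus, measured 345, 452, 327 and 412 in atria and 2316, 2397, 2064 and 2049 in ventricles (log2 difference -2.53 ± 0.06 SE, limma adjusted p = 1.87e-12). All 4 mice had at least 4 times more Fhl2 in the ventricle. Hspb8 and Xirp2 had log2 differences of -1.36 and -1.26, and Myoz2, a calcineurin-binding Z-disc protein, -0.88. On the atrial side Pdlim3, an actinin-associated LIM protein, measured 82.0 ± 16.7 in atria and 19.6 ± 0.297 in ventricles.

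The calcium pump and its regulators separated the chambers through the regulators. SERCA2, the pump that refills the sarcoplasmic reticulum, is encoded by Atp2a2, which stood at 17586 ± 1236 in atria and 21204 ± 834 in ventricles, a log2 difference of -0.27 ± 0.08 that turned to 0.30 after rescaling to the same sum. Its inhibitor phospholamban (Pln) measured 1907, 1881, 1891 and 1784 in atria and 9087, 8445, 8112 and 8033 in ventricles (log2 difference -2.17 ± 0.05 SE, limma adjusted p = 1.31e-12). Sarcolipin, the other inhibitor, was near 0 in ventricles: its values were 1754, 1839, 1929 and 1816 against 3.31, 1.09, 4.88 and 3.71. Atria and ventricles did not overlap for either inhibitor. Per kilobase, Sln made up 67.3% ± 1.07 in atria and 0.0814% ± 0.0416 in ventricles of the Sln and Pln pair.

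Release and dyad genes leaned to the ventricle under the authors' scaling. Of 18 tested, 11 were higher in ventricles and 5 in atria, against 31.9% and 29.8% of all genes tested. This count was not repeated after rescaling. The ryanodine receptor gene Ryr2 measured 2070.3 ± 142 in atria and 2342 ± 177 in ventricles, the calcium buffer Casq2 953 ± 85.3 in atria and 1369 ± 95.3 in ventricles and junctophilin Jph2, which ties the tubule to the reticulum, 438 ± 36.2 in atria and 801 ± 17.0 in ventricles. The ventricular lead of Ryr2 (-0.18 ± 0.06) was not called without mouse CDA293 (-0.13), and after rescaling to the same sum Ryr2 and Casq2 stood at 0.39 and 0.04. Bin1 shapes the tubule membrane and was higher in atria at a low level, 12.5 ± 1.26 in atria and 6.27 ± 0.693 in ventricles. The inositol trisphosphate receptor Itpr2 was not called, at 30.7 ± 6.09 in atria and 24.4 ± 4.55 in ventricles (log2 difference 0.32 ± 0.13 SE, limma adjusted p = 0.0509). It was called without mouse CDA294 (0.50), by edgeR and voom, under the stricter filter and after each of 3 rescalings (up to 0.86). Ryr3, the low-abundance ryanodine receptor, measured 47.9 ± 10.6 in atria and 2.26 ± 0.679 in ventricles, although its exons overlap those of Aven. Of the transverse tubule list, 5 of 18 tested members were higher in atria, 12 were higher in ventricles and 1 was not called, with Cavin4, a caveolar coat protein, at 31.7 ± 4.999 in atria and 150.4 ± 2.87 in ventricles. After rescaling to the same sum this list turned, with 9 higher in atria and 5 in ventricles. Its median relative to that of all genes was -0.45 before and -0.40 after. In the calcium handling list as a whole, 20 of 55 tested members were higher in atria, 23 were higher in ventricles and 12 were not called, and 41 higher in atria and 10 in ventricles after that rescaling. Ppp1r1b, the phosphatase inhibitor DARPP-32, and the kinase Camk1d were among its largest atrial members, at 100.1 ± 21.9 in atria and 1.14 ± 0.508 in ventricles and 86.8 ± 5.89 in atria and 4.77 ± 0.968 in ventricles.

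Potassium channel subunits were divided by current. The atrial acetylcholine-activated channel is a tetramer of KCNJ3 and KCNJ5, and both genes were higher in atria: Kcnj3 measured 684, 647, 744 and 794 in atria and 113, 110.1, 109 and 109 in ventricles (log2 difference 2.68 ± 0.05 SE, limma adjusted p = 2.01e-13). Kcnj5 measured 361, 403, 319.7 and 412 and 121, 104, 117 and 119 (log2 difference 1.68 ± 0.07 SE, limma adjusted p = 1.45e-10). No ventricle reached any atrium for either gene. The receptor that opens this channel, the muscarinic receptor Chrm2, measured 481 ± 31.5 in atria and 206 ± 9.35 in ventricles, and the G protein regulator Rgs6 that closes it 75.6 ± 10.9 in atria and 22.6 ± 3.99 in ventricles, both higher in 4 of 4 atria.

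The ATP-sensitive channel showed a switch of its regulatory subunit. Abcc8, which encodes SUR1, measured 168, 168, 162 and 207 in atria and 58.0, 54.6, 51.5 and 61.6 in ventricles, and Abcc9, which encodes SUR2, measured 54.1, 41.4, 51.0 and 51.5 in atria and 489, 422, 452 and 505 in ventricles. The 2 genes went in opposite directions without overlap (log2 differences 1.62 ± 0.05 and -3.22 ± 0.05). SUR1 transcripts made up 78.6% ± 2.47 in atria and 11.1% ± 0.535 in ventricles of the pair per kilobase. Each SUR gene has a pore gene beside it in the genome: Kcnj11 lies 3758 bases from Abcc8 on chromosome 7, and Kcnj8 lies 16247 bases from Abcc9 on chromosome 6. The pore genes did not mirror their neighbours in full. Kcnj11 was slightly higher in ventricles (-0.36 ± 0.05, but 0.21 after rescaling to the same sum), although its neighbour was higher in atria, and Kcnj8 (-1.28 ± 0.08) was higher in ventricles with Abcc9. Abcc9 and Kcnj8 are also pericyte genes, and that cell type is covered with the marker lists below.

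Of the voltage-gated channels, the transient outward current subunit Kcnip2 was higher in ventricles beyond 2-fold. Kcnip2 (chromosome 19, 45791839 to 45816061) measured 27.7, 30.6, 27.3 and 35.4 in atria and 263, 286, 249.4 and 269.9 in ventricles (log2 difference -3.11 ± 0.06 SE, limma adjusted p = 1.39e-13), and each ventricle held at least 7 times its atrium. The pore genes it can join differed less, with Kcnd2 at 26.3 ± 3.22 in atria and 57.0 ± 8.05 in ventricles and Kcnd3 at 27.2 ± 1.18 in atria and 21.3 ± 2.20 in ventricles. Kcne1, the slow delayed rectifier subunit, measured 0.751 ± 0.318 in atria and 10.4 ± 1.27 in ventricles. The ultrarapid channel gene Kcna5 stood at 8.65 ± 2.15 in atria and 19.7 ± 4.28 in ventricles, higher in ventricles here (log2 difference -1.11 ± 0.11 SE, limma adjusted p = 1.74e-06). The inward rectifier Kcnj2 measured 41.3 ± 5.01 in atria and 69.5 ± 4.30 in ventricles, and the acid-sensitive leak channel Kcnk3 431 ± 27.4 in atria and 372 ± 13.7 in ventricles. In the whole list 18 of 38 tested members were higher in atria, 15 were higher in ventricles and 5 were not called, and 24 higher in atria and 11 in ventricles after rescaling to the same sum.

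Sodium channel subunits and partners were divided between the chambers. The beta subunit gene Scn4b was higher in ventricles, at 15.4 ± 5.58 in atria and 29.0 ± 12.5 in ventricles. The neuronal pore gene Scn10a was low and higher in atria, at 12.7 ± 1.64 in atria and 3.63 ± 0.603 in ventricles. The intracellular FGF homologues, which tune channel inactivation, exchanged places: Fgf12 made up 79.3% ± 2.53 in atria and 0.594% ± 0.308 in ventricles of the Fgf12 and Fgf13 pair per kilobase, and Fgf13 itself measured 35.5 ± 4.30 in atria and 83.5 ± 3.54 in ventricles. Of 15 sodium channel genes tested, 7 were higher in atria and 6 in ventricles, and 9 and 3 after rescaling to the same sum.

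Pacemaker and conduction genes were higher in atria, where the sinus node lies. In this list 21 of 26 tested members were higher in atria, 3 were higher in ventricles and 2 were not called, with a median log2 difference of 1.68. The funny current is carried by HCN channels. Hcn4 measured 21.996, 22.97, 13.9 and 24.9 in atria and 10.4, 11.8, 6.59 and 7.10 in ventricles, and Hcn2 measured 9.86, 11.9, 11.5 and 12.1 and 31.2, 34.2, 25.4 and 31.5. Hcn4 was higher in atria and Hcn2 in ventricles, neither with overlap (log2 differences 1.14 ± 0.14 and -1.35 ± 0.10). Hcn2 made up 51.4% ± 6.81 in atria and 86.9% ± 2.29 in ventricles of the Hcn2 and Hcn4 pair per kilobase.

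Calcium channels followed the same division. The L-type pore of working muscle, Cacna1c, was higher in ventricles at 148 ± 22.2 in atria and 366 ± 43.4 in ventricles. The L-type pore of pacemaker cells, Cacna1d, was higher in atria at 22.7 ± 2.90 in atria and 1.57 ± 0.518 in ventricles. So was the T-type pore Cacna1h, at 186 ± 78.2 in atria and 5.95 ± 1.295 in ventricles. The other T-type pore, Cacna1g, was not called, at 27.2 ± 6.31 in atria and 24.6 ± 7.09 in ventricles (log2 difference 0.15 ± 0.09 SE, limma adjusted p = 0.148), but was called higher in atria after rescaling to the same sum (0.70) and outside the mitochondrial genome (0.44). The auxiliary subunit Cacna2d2 measured 78.1 ± 14.5 in atria and 2.06 ± 0.860 in ventricles. Cacna1d made up 20.7% ± 3.11 in atria and 0.734% ± 0.297 in ventricles of the Cacna1d and Cacna1c pair per kilobase. The conduction system markers Cntn2 (54.3 ± 22.4 in atria and 8.23 ± 1.91 in ventricles) and Cpne5 (60.6 ± 16.01 in atria and 0.880 ± 0.249 in ventricles) were both higher in atria beyond 2-fold.

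Connexins form the gap junctions between myocytes. Gja5, the fast-conducting connexin 40 of atria and the conduction system, measured 122, 117, 86.1 and 94.8 in atria and 7.07, 5.66, 3.67 and 3.71 in ventricles (log2 difference 4.16 ± 0.09 SE, limma adjusted p = 4.15e-13), and the chambers did not overlap. Gja1, connexin 43, measured 396, 268, 283 and 267 in atria and 523, 375, 415 and 432 in ventricles. The atrium of mouse CDA287 was the highest of the 4, and the log2 difference of -0.53 ± 0.05 went to 0.03 after rescaling to the same sum. Gja5 made up 38.3% ± 4.004 in atria and 2.01% ± 0.564 in ventricles of the Gja5 and Gja1 pair per kilobase. Among the desmosome and adherens genes, 10 of 17 were higher in ventricles and 4 in atria, against 31.9% and 29.8% of all genes tested. The count of these 17 was not repeated after rescaling. The desmosomal protein genes split, with Dsp at 790.2 ± 54.0 in atria and 1713 ± 131 in ventricles, Pkp2 higher in ventricles at a log2 difference of -1.10, and Dsc2 higher in atria at 1.396. In the junction list as a whole, 10 of 26 tested members were higher in atria, 12 were higher in ventricles and 4 were not called, and rescaling to the same sum turned this to 17 higher in atria and 7 in ventricles.

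**Figure D3:**
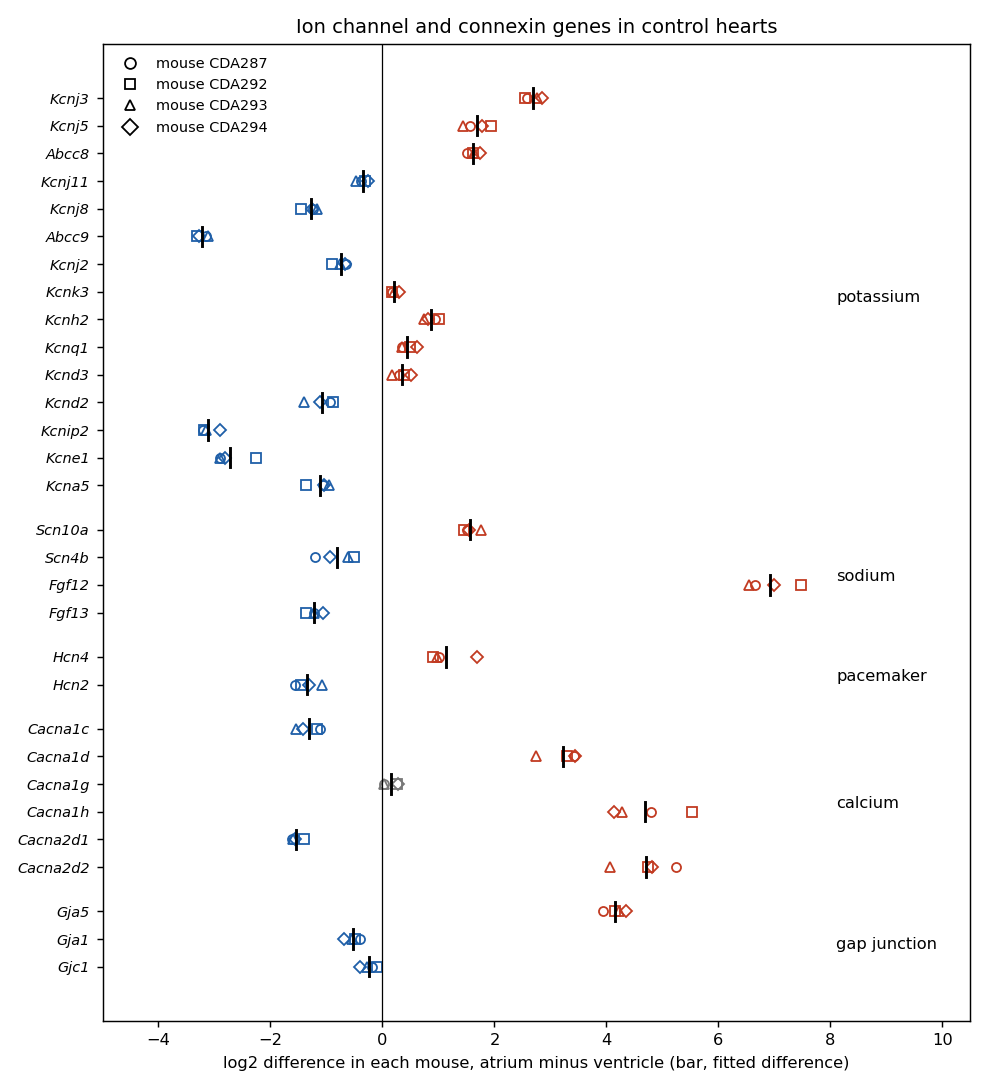
Log2 difference (atrium minus ventricle) of ion channel and connexin genes in each of 4 control mice, with a bar at the fitted difference; red symbols are genes called higher in atrium, blue symbols genes called higher in ventricle and grey symbols genes not called. Fgf12, Cacna1h, Cacna2d2 and Gja5 lie farthest to the atrial side and Abcc9, Kcnip2 and Kcne1 farthest to the ventricular side, and the 4 mice of a gene lie close together.

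Overlapping genes limit a few of these values. Whether reads were counted by strand is not given in the sources used here, and the exons of Gja5 overlap those of Gpr89, those of Kcnj3 overlap Gm26794, those of Pln overlap Gm47644, those of Cacna1d overlap Chdh and those of Shox2 overlap Rsrc1, each on the other strand. The partner levels were 24.1 in atria and 24.8 in ventricles for Gpr89, 35.02 and 4.89 for Gm26794, and 29.8 and 17.3 for Rsrc1. These partner genes were chosen for their position.

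Chamber transcription factors showed some of the cleanest divisions. The T-box factor Tbx5, needed for atrial identity, measured 241, 238, 234 and 259 in atria and 26.1, 25.7, 31.6 and 26.7 in ventricles (log2 difference 3.10 ± 0.07 SE, limma adjusted p = 2.92e-13). The nuclear receptor genes Nr2f2 and Nr2f1, which encode COUP-TFII and COUP-TFI, measured 74.9 ± 6.603 in atria and 12.4 ± 1.69 in ventricles and 18.7 ± 1.08 in atria and 2.79 ± 0.552 in ventricles. Shox2, a sinus node factor, measured 18.1 ± 1.997 in atria and 0.571 ± 0.289 in ventricles, and Tbx3, a repressor of the working muscle program in the conduction system, 16.2 ± 2.54 in atria and 10.8 ± 2.18 in ventricles. In the list of atrial factors 10 of 15 tested members were higher in atria, 5 were higher in ventricles and all were called, and 10 higher in atria and 3 in ventricles after rescaling to the same sum. The 5 ventricular members included Hopx, Prox1 and Hand2, with log2 differences of -1.10, -0.95 and -0.43, of which that of Hand2 turned to 0.13 after that rescaling.

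The Iroquois genes were ventricular as a group. Irx4 (chromosome 13, 73260479 to 73269608), the factor that defines ventricular fate, measured 0.0387, 0.0299, 0.0353 and 0.201 in atria and 35.9, 38.02, 42.7 and 38.1 in ventricles. The atria held 3 reads in all and the ventricles 1909, so per effective library Irx4 was 785 times higher (95% exact Poisson interval 268 to 3811) in ventricles (log2 difference -5.21 ± 0.15 SE, limma adjusted p = 4.65e-12). Its cluster neighbours on chromosome 13, Irx2 and Irx1, measured 0.230 ± 0.211 in atria and 8.78 ± 1.49 in ventricles and 0.316 ± 0.246 in atria and 10.01 ± 0.838 in ventricles. In the second cluster, on chromosome 8, Irx3 measured 2.44, 1.404, 2.86 and 1.003 in atria and 43.0, 57.1, 56.4 and 54.5 in ventricles, and Irx5 measured 1.46 ± 0.277 in atria and 12.04 ± 1.21 in ventricles. All 5 were called beyond 2-fold higher in ventricles, with no overlap. Irx4, Irx2 and Irx1 were under 1 CPM in every atrium. They passed the filter through the ventricles alone, which largely set their direction. Irx3 marks the ventricular conduction fibres.

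Other ventricular factors varied. Lbh, a small developmental regulator, measured 62.7 ± 8.53 in atria and 681 ± 64.2 in ventricles, and Prdm16, a zinc finger factor of compact myocardium, 3.13 ± 0.594 in atria and 18.0 ± 3.67 in ventricles. Hey2, a Notch target that represses atrial genes, was low, at 3.19 ± 0.946 in atria and 6.08 ± 0.551 in ventricles. Of this list 3 of 14 tested members were higher in atria, 9 were higher in ventricles and 2 were not called, and 5 higher in atria and 7 in ventricles after rescaling to the same sum.

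The factors common to both chambers were close to even. Nkx2-5 was not called, at 80.1 ± 6.76 in atria and 87.0 ± 3.81 in ventricles (log2 difference -0.12 ± 0.06 SE, limma adjusted p = 0.0725; 0.44 and called after rescaling to the same sum), and Gata4 was called at a log2 difference of -0.31 ± 0.05, which became 0.26 after that rescaling. Tbx20 was higher in atria, at 189.7 ± 24.0 in atria and 109 ± 8.91 in ventricles. Gata5 was the large exception besides Tbx5, at 6.93 ± 1.55 in atria and 0.373 ± 0.178 in ventricles, and is also a gene of endocardium and mesothelium. Of this core list 6 of 17 tested members were higher in atria, 4 were higher in ventricles and 7 were not called, and 16 higher in atria and 0 in ventricles after that rescaling. Hand1 had 4 reads in all 8 libraries and was not tested.

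The TALE homeodomain family holds Meis1 and Meis2, whose floxed alleles every mouse here carried, and their PBX partners. Meis1 measured 27.3, 27.9, 25.7 and 32.4 in atria and 26.8, 28.4, 26.9 and 27.0 in ventricles and was not called (log2 difference 0.05 ± 0.08 SE, limma adjusted p = 0.642), but was called higher in atria after rescaling to the same sum (0.60) and outside the mitochondrial genome (0.34). Meis2 measured 22.1, 18.7, 19.4 and 19.7 in atria and 32.6, 26.6, 22.4 and 25.6 in ventricles, slightly higher in ventricles (log2 difference -0.40 ± 0.09 SE, limma adjusted p = 0.00177), although the log2 difference was 0.15 after rescaling to the same sum. Meis3 was the member with the largest difference, at 8.68 ± 1.55 in atria and 3.35 ± 0.548 in ventricles (log2 difference 1.15 ± 0.16 SE, limma adjusted p = 2.64e-05). Their partner Pbx3 had a log2 difference of 0.40, a call that was lost without mouse CDA293 or CDA294 (0.24 and 0.36). Of the family, 4 of 10 tested members were higher in atria, 2 were higher in ventricles and 4 were not called, and no member passed the test beyond 2-fold. Both of these rescalings gave 8 higher in atria and 0 in ventricles.

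BMP and TGF-beta family genes were mostly higher in atria. In this list 32 of 43 tested members were higher in atria, 3 were higher in ventricles and 8 were not called, with a median of 0.68. Over all genes tested 29.8% were higher in atria and 31.9% in ventricles. Members under 1 CPM in every ventricle, such as Bmp10 and Bmp3, passed the filter through the atria alone, which largely set their direction. Apart from Bmp10, the ligand Bmp3 had 1440 reads in atria and none in ventricles, which is at least 389-fold higher against a limit of 3 reads over the group. Bmp5 measured 4.67 ± 0.423 in atria and 0.680 ± 0.688 in ventricles. The BMP inhibitor Chrdl1 and the targets Smad6, an inhibitory SMAD, and Id2 were higher in atria beyond 2-fold, at 10.7 ± 2.28 in atria and 0.958 ± 0.238 in ventricles, 59.0 ± 7.65 in atria and 14.6 ± 2.24 in ventricles and 40.6 ± 4.49 in atria and 9.08 ± 1.52 in ventricles. Of 26 receptors, inhibitors and targets tested, 20 were higher in atria and 2 in ventricles. The type I receptor gene Bmpr1a was not called, at 120.2 ± 5.65 in atria and 131 ± 5.98 in ventricles, but was called higher in atria after rescaling to the same sum (0.44).

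Other growth factor lists divided by member. Of the FGF and growth factor list, 20 of 35 tested members were higher in atria, 11 were higher in ventricles and 4 were not called. Fgf16 and Fgf9, secreted ligands, were higher in ventricles, at 1.03 ± 0.461 in atria and 28.0 ± 3.28 in ventricles and 1.17 ± 0.545 in atria and 11.1 ± 2.66 in ventricles, while Angpt1, an endothelial growth factor, and the binding proteins Igfbp5 and Igfbp6 were higher in atria, at 271 ± 54.0 in atria and 59.4 ± 8.01 in ventricles, 817 ± 151 in atria and 115 ± 19.1 in ventricles and 135 ± 11.03 in atria and 19.3 ± 0.718 in ventricles. In the Wnt list 13 of 21 tested members were higher in atria, 2 were higher in ventricles and 6 were not called, with the secreted antagonist Sfrp5 at 70.2 ± 22.4 in atria and 2.08 ± 0.940 in ventricles and, on the ventricular side, the antagonist Wif1 at 0.339 ± 0.132 in atria and 9.89 ± 2.47 in ventricles. In the retinoic acid list 7 of 15 tested members were higher in atria, 4 were higher in ventricles and 4 were not called, and 10 higher in atria and 3 in ventricles after rescaling to the same sum. The synthesising enzyme Aldh1a2, expressed by mesothelium, measured 27.7 ± 1.86 in atria and 5.06 ± 1.67 in ventricles, the reductase Dhrs3 38.02 ± 2.51 in atria and 78.0 ± 11.5 in ventricles and the retinol transporter Stra6 2.002 ± 0.381 in atria and 0.570 ± 0.497 in ventricles. The receptor Rxrg was higher in ventricles, at 28.4 ± 1.14 in atria and 94.5 ± 6.32 in ventricles.

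Autonomic signalling genes were divided in a way that rests on the scaling. In the list 23 of 49 tested members were higher in atria, 19 were higher in ventricles and 7 were not called, and 34 higher in atria and 9 in ventricles after rescaling to the same sum. The beta receptor gene Adrb1 was close to even, at 19.8 ± 2.64 in atria and 24.2 ± 2.22 in ventricles, and was not called without mouse CDA292 or CDA293 (log2 differences -0.22 and -0.25) or by DESeq2, and turned to 0.26 after that rescaling. The alpha receptor gene Adra1a was higher in ventricles, at 1.47 ± 0.920 in atria and 27.1 ± 9.84 in ventricles, and so was Gpr22, an orphan receptor, at 9.92 ± 1.75 in atria and 59.3 ± 11.3 in ventricles. The adenylyl cyclases differed by isoform: Adcy1, the calmodulin-stimulated form, measured 92.4, 96.6, 88.0 and 113 in atria and 2.74, 1.54, 3.17 and 1.45 in ventricles (log2 difference 4.97 ± 0.16 SE, limma adjusted p = 1.53e-11), and the main cardiac form Adcy5 measured 181 ± 22.8 in atria and 152 ± 9.87 in ventricles. No ventricle came near an atrium for Adcy1. The G protein subunit Gnao1 measured 229 ± 13.2 in atria and 26.9 ± 2.85 in ventricles.

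Energy metabolism genes were mostly higher in ventricles. All 13 protein genes of the mitochondrial genome were higher in ventricles, between -1.69 and -1.04 on the log2 scale, and so were 80 of 83 nuclear genes of the respiratory chain, with 3 not called and a median of -0.96. By complex, 37 of 37 genes of complex I, 4 of 4 of complex II, 10 of 10 of complex III, 13 of 16 of complex IV and 16 of 16 of ATP synthase were higher in ventricles. After rescaling to the same sum the mitochondrial genes stayed at 13 of 13 and the nuclear ones gave 3 higher in atria and 74 in ventricles. Ndufs6 and Cox8b, a heart and muscle isoform of cytochrome oxidase, had the largest differences, with Cox8b at 229 ± 29.3 in atria and 674 ± 43.3 in ventricles. Cox6a2, another muscle isoform, stood at 729 ± 55.8 in atria and 1476 ± 39.1 in ventricles. The mitochondrial ribosome followed: 1 of 78 tested members was higher in atria, 74 were higher in ventricles and 3 were not called, and 4 higher in atria and 55 in ventricles after rescaling to the same sum.

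Fuel use genes showed the same side. In the fatty acid oxidation list 6 of 54 tested members were higher in atria, 45 were higher in ventricles and 3 were not called, with a median of -1.14 and 26 members beyond 2-fold in the ventricular direction. Of the 20 enzymes of beta oxidation, 18 were higher in ventricles and 15 of these beyond 2-fold. After rescaling to the same sum the whole list gave 10 higher in atria and 34 in ventricles. The fatty acid binding protein Fabp3 measured 884, 1094, 968 and 955 in atria and 4807, 5151, 4761 and 4612 in ventricles (log2 difference -2.31 ± 0.05 SE, limma adjusted p = 4.57e-13). The lowest ventricle held more than 4 times the highest atrium. Cpt1b, the gate of mitochondrial fatty acid entry, measured 447 ± 39.6 in atria and 939.8 ± 13.8 in ventricles and the uncoupling protein Ucp3 20.5 ± 3.40 in atria and 144 ± 30.5 in ventricles. The other uncoupling protein of the list, Ucp2, went the other way, at 505 ± 29.6 in atria and 105 ± 20.7 in ventricles (log2 difference 2.27 ± 0.08 SE, limma adjusted p = 5.32e-11). The coactivator Ppargc1a, which drives mitochondrial genes, was called higher in ventricles, at 93.2 ± 7.55 in atria and 129 ± 13.6 in ventricles, a log2 difference of -0.46 that turned to 0.10 after rescaling to the same sum.

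All 16 genes of ketone and branched-chain oxidation were higher in ventricles, and the ketone enzyme Bdh1 led them, at 17.2 ± 7.28 in atria and 173 ± 51.8 in ventricles. After rescaling to the same sum 1 of the 16 was higher in atria and 13 in ventricles. In the citric acid cycle and pyruvate list 1 of 29 tested members was higher in atria, 27 were higher in ventricles and 1 was not called. The same rescaling gave 2 higher in atria and 24 in ventricles. Citrate synthase (Cs) measured 935 ± 63.3 in atria and 1943 ± 46.9 in ventricles and isocitrate dehydrogenase Idh2 716 ± 31.9 in atria and 2679.5 ± 140.1 in ventricles. The pyruvate dehydrogenase kinases split by isoform, with Pdk4 higher in ventricles (335 ± 65.7 in atria and 1026 ± 331 in ventricles) and Pdk3 higher in atria (25.5 ± 2.16 in atria and 3.10 ± 0.971 in ventricles). Glycolysis leaned the same way: 5 of 33 tested members were higher in atria, 24 were higher in ventricles and 4 were not called, and 12 higher in atria and 17 in ventricles after rescaling to the same sum. The insulin-regulated glucose carrier Slc2a4 stood at 329 ± 22.5 in atria and 653 ± 10.95 in ventricles. Phkg1, a phosphorylase kinase subunit, was the member highest in atria, at 136 ± 6.26 in atria and 42.1 ± 6.72 in ventricles. Creatine kinase Ckm, its mitochondrial partner Ckmt2 and myoglobin (Mb) measured 886 ± 83.2 in atria and 3006 ± 266 in ventricles, 805 ± 74.0 in atria and 2901 ± 269 in ventricles and 4938 ± 209 in atria and 16129.7 ± 879 in ventricles. Per kilobase, myoglobin was the highest nuclear gene of the ventricle, at 10811 ± 589, and had rank 5 in atria.

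The mitochondrial reads include an ambiguity. A stretch of chromosome 1 (24612775 to 24616197) holds copies of mitochondrial genes, annotated as Gm28438, Gm28437, Gm10925, Gm28661 and Gm29216, which share 97.2 to 100% of their 25-base words with mt-Nd3, mt-Co3, mt-Atp6, mt-Co2 and mt-Co1. The 5 copies were chosen after their values were seen. Reads of 60 bases cannot place such a copy, and the split differed between chambers: Gm10925 measured 2276 ± 453 in atria and 0.205 ± 0.0331 in ventricles, a log2 difference of 10.86 that is larger than that of Bmp10. Gm28661 measured 2581 ± 419 in atria and 303 ± 555 in ventricles, where that of mouse CDA294 stood far above the others, and its log2 difference of 5.29 was 4.64 without mouse CDA292 and 6.58 without mouse CDA294. For Gm10925, the mitochondrial twin mt-Atp6 had a log2 difference of -1.51. Summed with Gm10925, the pair measured 17355 ± 923 in atria and 42986 ± 3078 in ventricles. Gm29216 went the other way, at 4085 ± 316 and 17386 ± 771. The copies made up 1.25% ± 0.0615 of atrial and 1.39% ± 0.120 of ventricular reads, and the mitochondrial genome with its copies 18.4% ± 0.713 and 32.3% ± 0.667. Whether any of these reads came from chromosome 1 was not tested.

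Cytosolic ribosome genes were close to even. Of the list, 7 of 80 tested members were higher in atria, 35 were higher in ventricles and 38 were not called, at a median of -0.09, and the counts turned to 56 higher in atria and 6 in ventricles after rescaling outside the mitochondrial genome. Rpl3l stood apart, at 16.7, 22.9, 16.8 and 18.7 in atria and 388, 396, 395 and 406 in ventricles (log2 difference -4.34 ± 0.07 SE, limma adjusted p = 1.85e-14). Per kilobase Rpl3l made up 10.2% ± 3.48 in atria and 83.6% ± 4.70 in ventricles of the Rpl3l and Rpl3 pair. The share was clearly separated by chamber, with every ventricle at 79.3% or more Rpl3l and every atrium at 14.7% or less.

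Matrix genes were higher in atria. Of the collagens 20 of 29 tested members were higher in atria, 3 were higher in ventricles and 6 were not called, and of the matrix glycoprotein list 31 of 41 tested members were higher in atria, 6 were higher in ventricles and 4 were not called. Rescaling to the same sum gave 27 higher in atria and 0 in ventricles for the collagens and 35 and 2 for the glycoproteins. The fibrillar collagens Col1a1 and Col3a1 measured 164 ± 55.2 in atria and 70.5 ± 13.8 in ventricles and 387 ± 150.5 in atria and 158 ± 42.1 in ventricles. Decorin (Dcn) measured 767 ± 124 in atria and 564 ± 24.3 in ventricles, and periostin (Postn) 83.4 ± 15.5 in atria and 36.7 ± 7.74 in ventricles. Col4a6, a basement membrane chain, had the largest collagen difference, at 15.9 ± 3.44 in atria and 0.946 ± 0.295 in ventricles. The cartilage protein genes Comp and Fmod measured 33.1 ± 6.35 in atria and 2.22 ± 0.406 in ventricles and 48.3 ± 9.75 in atria and 4.52 ± 0.307 in ventricles, and fibronectin (Fn1) 187 ± 30.4 in atria and 41.0 ± 3.27 in ventricles.

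Markers of cells other than cardiomyocytes moved with the chamber, and their part in the differences above was not tested. The 17 fibroblast markers were all tested, with 16 higher in atria, and their summed level ran from 5028 to 6792 in atria and from 2781 to 3121 in ventricles. Of 12 endocardial markers, 11 were tested and 10 were higher in atria, with sums of 915 to 1127 and 217 to 252. Npr3 is one of them. The 16 markers of mesothelium and epicardium, the covering of the heart, were all higher in atria and 15 of them beyond 2-fold, with sums of 1110.3 to 1454 and 248.9 to 286. Upk3b, a mesothelial plaque protein, measured 171 ± 15.6 in atria and 13.3 ± 1.91 in ventricles and Muc16, a mesothelial mucin, 33.0 ± 3.44 in atria and 3.29 ± 1.70 in ventricles. None of these 3 lists had a marker without reads in either chamber.

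Capillary endothelium was the exception, with 14 of 23 markers higher in ventricles and 7 in atria, although rescaling to the same sum gave 12 higher in atria and 5 in ventricles. The summed level was 2975 to 3506 in atria and 5038 to 5508 in ventricles, and it includes the fatty acid carrier Cd36, which myocytes also express, at 964 ± 60.4 in atria and 2748 ± 89.0 in ventricles. The venous and endocardial gene Vwf went the other way, at 362 ± 49.1 in atria and 104 ± 13.1 in ventricles. Smooth muscle and pericyte markers split, with 5 of 18 higher in atria and 7 in ventricles, and the counts turned to 11 higher in atria and 6 in ventricles after that rescaling. The pericyte genes Rgs5 and Vtn were higher in ventricles with Abcc9 and Kcnj8, at 196 ± 18.6 in atria and 566 ± 34.7 in ventricles and 5.41 ± 1.44 in atria and 21.1 ± 0.820 in ventricles. By contrast the contractile gene Cnn1 was higher in atria, at 23.3 ± 8.22 in atria and 1.80 ± 0.642 in ventricles. This list summed to 2226 to 2859 in atria and 4156 to 4393 in ventricles and includes desmin, which cardiomyocytes express.

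Nerve and glia markers, which belong to the cardiac ganglia and nerves, were higher in atria. Of 27 markers in the annotation 21 were tested, and 21 were higher in atria. Markers without a read in any ventricle included Th, Slc18a3, Chrna3, Snap25 and Npy. Those of them that were tested (Slc18a3, Chrna3, Snap25 and Npy) passed the filter through the atria alone, which set their direction. The list summed to 224 to 317 in atria and 89.8 to 94.4 in ventricles. Prph, a peripheral neuron filament, measured 13.3 ± 2.77 in atria and 0.335 ± 0.217 in ventricles and Tubb3, neuronal tubulin, 14.8 ± 2.71 in atria and 0.841 ± 0.612 in ventricles. Snap25 also stands in the granule list, and how much of Snap25 or Syt1 came from nerve cells was not tested.

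Blood and immune cell markers varied between mice. The lymphocyte list, with 9 of 17 markers tested, had 9 higher in atria. Members under 1 CPM in every ventricle, such as Igkc, passed the filter through the atria alone, which largely set their direction. The sum of the list was 355, 364, 1032 and 228 in the 4 atria and 12.6 to 19.7 in ventricles. The atrium of mouse CDA293 was the highest, and it also held the most Igkc, a list member that made up only part of the sum. Igkc measured 91.0, 121, 339 and 72.2 in atria and 0.531, 1.54, 0.654 and 0.459 in ventricles. All 4 atria were above the ventricles for Igkc (log2 difference 6.21 ± 0.26 SE, limma adjusted p = 1.94e-10). In the thymus and lymph node list 2 of 9 markers were tested, with the follicular receptor Cr2 higher in atria (3.11 ± 1.04 in atria and 0.217 ± 0.144 in ventricles) and the lymphatic chemokine Ccl21a higher in ventricles (11.04 ± 1.38 in atria and 29.6 ± 6.31 in ventricles), and sums of 15.1 to 15.8 and 24.5 to 36.1. Macrophage markers differed less, with 10 of 19 higher in atria, none in ventricles and sums of 585 to 749 and 470 to 500. Rescaling to the same sum gave 17 higher in atria and 0 in ventricles. Erythroid markers were higher in ventricles, 6 of 6 tested of 9 (5 of 6, and 1 higher in atria, after rescaling to the same sum), with sums of 102 to 219 in atria and 387 to 476 in ventricles. The beta globin gene Hbb-bs measured 54.5 ± 19.3 in atria and 190.0 ± 14.9 in ventricles. Reads of the near-identical globin copies may have been divided between them.

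Fat and skeletal muscle markers were checked as tissue that can be carried with the atria. Of 14 white adipocyte markers 9 were higher in atria and 2 in ventricles, against 29.8% and 31.9% of all genes tested. Adiponectin (Adipoq) was among the 9, with 24.2, 11.02, 52.4 and 44.1 in atria and 0.123, 0.637, 0.855 and 0.177 in ventricles. Mice CDA293 and CDA294 had the higher atrial values. Members under 1 CPM in every ventricle, such as Adipoq and Lep, passed the filter through the atria alone, which largely set their direction. The sum over the list ran from 1038 to 2446 in atria and from 1483 to 1607 in ventricles, where Fabp4 and other genes of the list that the heart itself expresses held it up, and Lep had no read in any ventricle. Of 10 brown adipocyte markers 6 were tested, with 3 higher in atria and 2 in ventricles (3 and 1 after rescaling to the same sum), and the sums were 333 to 546 and 802 to 888, which include Cox8b. Of 16 skeletal muscle markers 8 were tested, 5 higher in atria and 3 in ventricles, with Atp2a1, the skeletal calcium pump, at 22.9 ± 10.7 in atria and 1.003 ± 0.310 in ventricles and Myog without a read in either chamber. The skeletal sum was 824 to 1040.3 in atria and 2841 to 3436 in ventricles and includes Ckm. The lung and airway list had 2 of 16 markers tested, of which Napsa was higher in atria, at 3.40 ± 1.34 in atria and 0.775 ± 0.291 in ventricles, and Hopx, which the heart also expresses, in ventricles, with sums of 194 to 209.6 and 406 to 447, and the valve list 8 of 11, 4 higher in atria and 3 in ventricles (5 and 2 after rescaling to the same sum). The valve sum was 1219 to 1750.4 in atria, mostly from Dkk3, and 42.2 to 51.6 in ventricles. The lymphatic list had 2 of 7 markers higher in atria and 4 in ventricles (3 and 2 after rescaling to the same sum, which turns the majority), with sums of 165 to 199.9 and 173 to 207, and the neutrophil and mast cell list 3 of 6 tested of 12 higher in atria (none of 6 by DESeq2), with sums of 13.3 to 19.1 and 11.9 to 14.6.

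**Figure D4:**
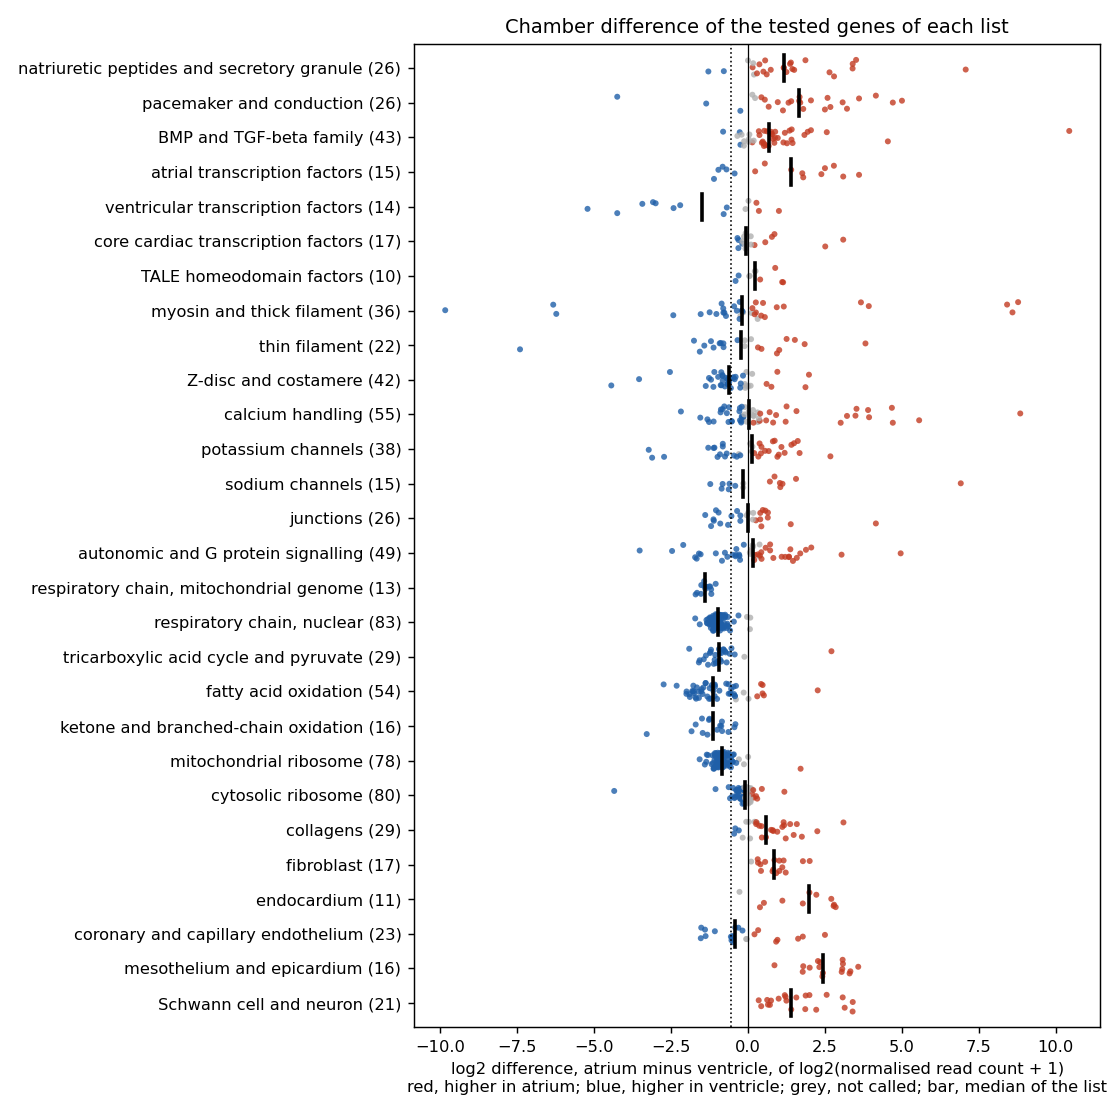
Log2 difference (atrium minus ventricle) of each tested gene of 28 lists, with the number tested in parentheses and a bar at the median of the list; red points are called higher in atrium, blue points higher in ventricle and grey points not called. The dotted line lies at -0.54, the value at which a gene would be even after rescaling to the same sum; the respiratory chain, citric acid cycle and fatty acid lists have medians to its left, and the mesothelial, neural, endocardial and pacemaker lists have medians to the right of 0.

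Genes of other processes gave smaller or single differences. In the cell cycle list 8 of 19 tested members were higher in atria, 4 were higher in ventricles and 7 were not called, and 15 higher in atria and 1 in ventricles after rescaling to the same sum. One gene stood apart from the rest of the list: Cenpf, a kinetochore protein, measured 4.37, 5.35, 5.05 and 6.16 in atria and 47.2, 41.8, 58.7 and 60.4 in ventricles (log2 difference -3.08 ± 0.11 SE, limma adjusted p = 4.45e-11), with no overlap, while the proliferation marker Mki67 was higher in atria, at 5.54 ± 2.38 in atria and 2.89 ± 0.685 in ventricles, a call that was lost without mouse CDA293 (log2 difference 0.42). Immediate early genes, which report handling stress at dissection, were summed to 405 to 551 in atria and 400.2 to 503 in ventricles, and 10 of 19 were not called, 7 being higher in atria and 2 in ventricles. In the circadian list 10 of 19 were not called, 6 were higher in atria and 3 in ventricles, with Nfil3 higher in ventricles at a log2 difference of -1.64. In the complement and coagulation list 16 of 20 tested members were higher in atria, 1 was higher in ventricles and 3 were not called, with C3 at 703 ± 106 in atria and 202 ± 12.1 in ventricles, and in the interferon list 7 of 27 tested members were higher in atria, 5 were higher in ventricles and 15 were not called. Rescaling to the same sum gave 18 higher in atria and 2 in ventricles for the interferon list, 16 and 0 for immediate early genes and 17 and 1 for the circadian list.

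The idKO mice give the same comparison in 4 other animals with no library in common. In their chambers 8096 of 14068 genes (57.5%) were called, 3956 higher in atrium and 4140 in ventricle. Of the genes called in controls 8513 were also tested in idKO mice, 8346 of them (98.0%) had the same sign there, 7007 had the same sign and were called, and 20 were called with the opposite sign. Of the genes beyond 2-fold in controls 1108 could be tested and 1100 were called in the same direction. Myl2 had a log2 difference of -9.83 in controls and -7.63 in idKO mice, Bmp10 10.44 and 10.01, and Irx4 -5.21 and -4.22.

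The difference between genotypes was then tested gene by gene in all 16 libraries, which share the control chambers used above. Of 14871 genes 102 (0.686%) were called, 79 with a more positive and 23 with a more negative atrium minus ventricle difference in idKO mice, and 44 were called without the mouse as a block. Esr1 led them, and part of its coding sequence is in the MerCreMer transgene. It measured 5.02 ± 0.895 in atria and 0.967 ± 0.632 in ventricles of control mice and 186 ± 95.5 in idKO atria and 3099 ± 574 in idKO ventricles. The chamber difference of Nppa was smaller in idKO mice, whose values were 26132 ± 1173 in idKO atria and 1115 ± 499.9 in idKO ventricles (difference of log2 differences -2.39 ± 0.26, limma adjusted p = 1.59e-04). For Fhl2 the idKO values were 328 ± 54.8 in idKO atria and 793 ± 116 in idKO ventricles, against 384 ± 58.2 in atria and 2206 ± 177 in ventricles in controls (1.25 ± 0.08, limma adjusted p = 9.72e-07). Abcc9 and Efnb3, an ephrin ligand, also had a smaller ventricular lead in idKO mice, with log2 differences of -3.22 and -2.95 in controls and -2.03 and -0.12 in idKO mice. For Gja1 the fitted sign changed, from -0.53 to 0.58 (limma adjusted p of the difference = 1.52e-05), and for Meis2, a floxed gene, from -0.40 to 0.93. The control difference of both genes turned positive after rescaling to the same sum, so the change of sign depends on the scaling. The 10 genes with the smallest p also include Ttll1, Entpd5, Lrrc10 and Cenpf, each with a more positive difference in idKO mice.

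**Figure D5:**
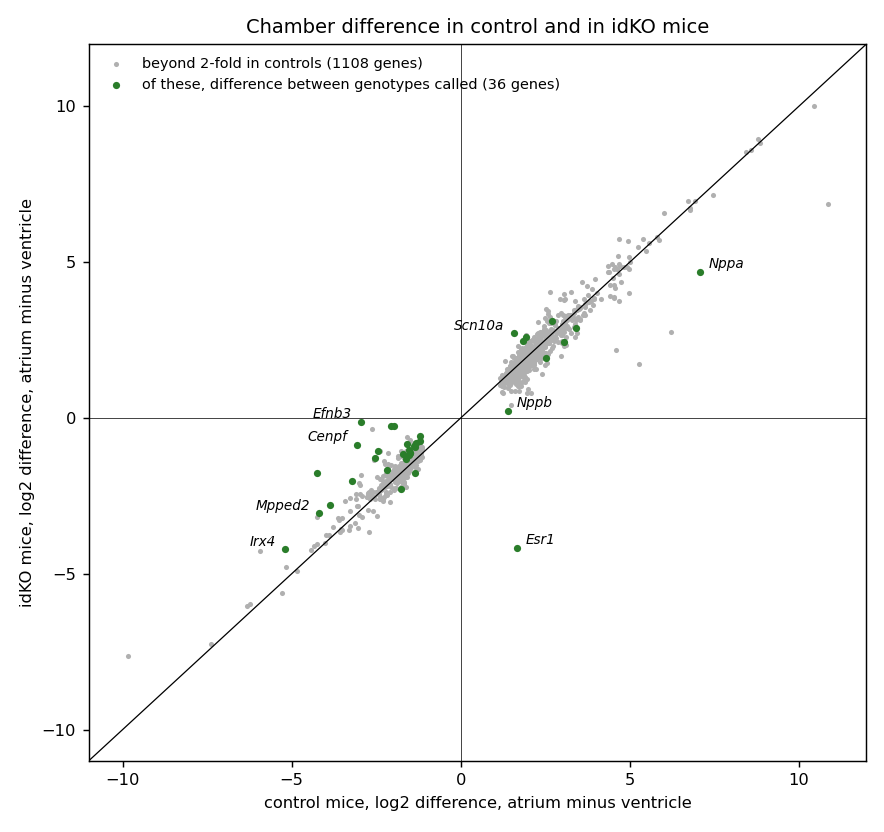
Log2 difference (atrium minus ventricle) in control mice on the horizontal axis and in idKO mice on the vertical axis for the 1108 genes beyond 2-fold in controls that were also tested in idKO mice; green points are the 36 whose difference changed between genotypes at a limma adjusted p under 0.05, and the line marks equal differences. Most points lie along the line, with Nppa and Nppb below it and Esr1 far below it.

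The genes beyond 2-fold were also described by what they are and where they lie. Of those higher in atrium 647 were protein coding, 21 were long noncoding and 6 were pseudogenes, and of those higher in ventricle 404, 31 and 9, against 12864, 851 and 284 among all genes tested. Their median exon length was 4416 bases in the atrial direction and 3158 in the ventricular one, against 4372 over all genes with a length. Among neighbouring protein-coding genes that do not overlap, 122 pairs had both members beyond 2-fold, of which 52 were both higher in atrium, 40 both higher in ventricle and 30 opposite. The myosin heavy chain genes Myh6 and Myh7 are neighbours too, 3756 bases apart on chromosome 14, but Myh6 was not called.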

How the data were processed

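PolyA RNA of 4 control atria and 4 control ventricles, with the 8 idKO libraries used only for the genotype comparison, was sequenced as 60-base single reads from 20 ng of RNA on a HiSeq2500, per the labels' protocols. Per the submitters' processing notes, cutadapt, RSEM 1.3.1 and GRCm38 were used; the sources used here give neither the scaling tool nor the annotation, nor whether counting used strand. The deposited values are a signal scaled by the authors, here called the normalised read count. With 0.5 taken off, 100% of values were whole multiples, within 0.01 of a read, of what 1 read is worth in that library, so reads were recovered for the count tools.

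The main test was limma 3.58.1 (R 4.3.3) with a trended prior on log2(value + 1), with mouse and chamber as terms, and Benjamini-Hochberg adjustment over all genes tested at 0.05; limma's treat tested a change beyond 2-fold. The filter was 1 CPM in 4 libraries. Pairing rests on the mouse number in the labels: deviations of atrium and ventricle of a mouse correlated at 0.242 to 0.306, and highest within the mouse for 4 of 4 mice. No replicate pair agreed within sampling noise (mean chi-square per gene of at least 8.08). Alternatives were edgeR 4.0.16, DESeq2 1.42.0, voom, other scalings, filters, pseudocounts and blocks, and each mouse left out in turn. The fitting scripts were tested on simulated data. Coordinates and exon lengths are from GENCODE M21 (GRCm38), and promoter sequences from RefSeq (GRCm38.p6). Exon length is that of all annotated exons of a gene, so levels per kilobase and shares of a pair depend on the annotation.

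Named genes were a fixed panel, the 15 largest changes per direction beyond 2-fold that went the same way in 4 mice with at least 5 CPM in the higher chamber and no predicted or clone name, up to 6 called and 2 uncalled members of each list, and the 10 smallest p for the genotype effect. Partners in isoform pairs, overlapping genes, mitochondrial copies and markers without reads were chosen after their values were seen. The members and gene lists were chosen with earlier results of these data known. Intervals and read limits cover counting error only. Fetal libraries were not analysed here, and some named genes are not reported here.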

Additional observations from a re-analysis of the deposited data

Results flagged for a closer look

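In 35 of 476 groups of 4 libraries examined, 7.35%, 1 library stood far from the other 3, by Dixon's 95% criterion for the gap at one end of a group; chance gives about 1 in 20. The values are normalised read counts, with the range of the other 3 libraries. In the atrium of mouse CDA287 they were Igfbp5 1040.4 (others 712 to 766), Gja1 396 (others 267 to 283) and Lrrc10 92.9 (others 121 to 123). In the atrium of mouse CDA287 further values were Tubb3 18.8 (others 13.3 to 13.7) and Gm34302 0.193 (others 0.0286 to 0.0353). The atrium of mouse CDA287 needed 337 genes for the first 50 percent of its reads, against 272 to 276 in the others. In the atrium of mouse CDA292 they were Cnn1 35.5 (others 17.8 to 20.1), Rab3b 20.7 (others 4.83 to 6.67), Casq2 1081 (others 903 to 917) and Pdlim3 107 (others 72.0 to 76.9). In the atrium of mouse CDA292 further values were Ucp3 25.6 (others 18.4 to 19.3) and Myh7 1404 (others 48.3 to 54.3). In the atrium of mouse CDA293 they were Tbx3 12.5 (others 17.2 to 17.9) and Gata4 91.1 (others 96.0 to 96.4). The summed level of the lymphocyte markers was 1032 in the atrium of mouse CDA293, against 228 to 364 in the others. The summed level of the brown adipocyte markers was 546 in the atrium of mouse CDA293, against 333 to 359.9 in the others. In the atrium of mouse CDA294 they were Irx4 0.201 (others 0.0299 to 0.0387), Abcc8 207 (others 162 to 168), Dsp 871 (others 756 to 771) and Ccl21a 13.1 (others 10.2 to 10.6). The flags of Irx4 and Gm34302 rest on 3 and 2 reads, against 0 reads in the other atria, and lie at the floor. In the ventricle of mouse CDA287 they were Cacna1g 35.2 (others 20.5 to 21.7), Itpr2 17.6 (others 26.4 to 26.9) and Kcnj2 75.8 (others 66.5 to 67.9). In the ventricle of mouse CDA292 they were Dcn 528 (others 573 to 578), Meis1 28.4 (others 26.8 to 27.0), Fgf13 78.3 (others 84.9 to 85.7) and Stra6 1.31 (others 0.247 to 0.368). In the ventricle of mouse CDA292 further values were Myh7 2186 (others 335 to 519) and Gm26794 3.18 (others 5.35 to 5.55). In the ventricle of mouse CDA293 they were Slc2a4 637 (others 656 to 660.4), Ucp2 136 (others 91.1 to 98.5) and Fmod 4.98 (others 4.35 to 4.38). In the ventricle of mouse CDA294 they were Cacna1h 7.88 (others 5.08 to 5.51), Gm28437 3477 (others 727 to 1029) and Gm28661 1136 (others 17.7 to 33.8).

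For 29 of the genes named, the chamber difference itself differed between idKO and control mice (limma, adjusted p under 0.05 for the interaction). The numbers are idKO minus control, on the log2 scale. A more positive difference was found for Efnb3 (2.83), Gm36827 (2.49), Cenpf (2.21), Ttll1 (1.73), Gpr22 (1.39), Meis2 (1.33), Fhl2 (1.25), Hcn4 (1.19), Abcc9 (1.19), Scn10a (1.15) and Mpped2 (1.14). The same sign at smaller size was found for Gja1 (1.12), Fgf16 (1.08), Irx4 (0.99), Mylk4 (0.95), Lrrc10 (0.94), Entpd5 (0.90), Fgf13 (0.63), Ryr2 (0.53) and Corin (0.37). A more negative difference was found for Esr1 (-5.82), Nppa (-2.39), Nppb (-1.18), Bin1 (-0.96), Tnnt1 (-0.75), Gnao1 (-0.62), Myom2 (-0.51), Pam (-0.51) and Tbx20 (-0.51).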

How the results depend on the processing

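There were 17 alternatives, and each gene was judged under those in which it was tested. Of 218 genes named and tested, 192 kept their direction and their side of the threshold throughout, and 202 reversed under none. The stricter filter, 5 CPM in 4 libraries, left some of the low genes untested, such as Irx2 and Lep. Rescaling mattered most. Outside the mitochondrial genome, 7283 genes were higher in atrium and 2458 in ventricle, with 248 of the latter beyond 2-fold; at the same sum, 9765 and 1476, and 1390 and 161 beyond 2-fold. The same-sum fit reversed these log2 differences: Nkx2-5 0.44, Ryr2 0.39, Bmpr1a 0.44, Gata4 0.26, Meis2 0.15, Casq2 0.044, Gpr89 0.51, Ppargc1a 0.10, Atp2a2 0.30, Myom2 0.37, Adrb1 0.26, Hand2 0.13, Myh6 0.42, Gja1 0.034, Tnnt1 0.19 and Kcnj11 0.21. The fit outside the mitochondrial genome reversed Nkx2-5 (0.18), Ryr2 (0.13), Bmpr1a (0.18), Gpr89 (0.26), Atp2a2 (0.033), Myom2 (0.11) and Adrb1 (0.010). As a share of reads outside the mitochondrial genome, the atrium over ventricle ratio of summed markers moved to 2.33 for fibroblast, 0.754 for coronary endothelium, 5.30 for endocardium, 1.16 for lymphatic endothelium (a reversal), 0.709 for smooth muscle, 1.76 for macrophage, 1.58 for neutrophil and mast cell, 3.46 for Schwann cell and neuron, 5.83 for mesothelium, 0.382 for skeletal muscle, 0.586 for lung, 0.624 for thymus, 37.8 for valve and 1.298 for immediate early genes.

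Beyond 2-fold, a pseudocount of 5 left 674 genes, 364 of them higher in atrium, and edgeR called 1108 higher in atrium; the cause was not tested. Without the replicate block 8072 genes were called in controls, and 44 in place of 102 for the genotype effect; among genes named, the calls of Ryr2, Myom2, Mylk3, Pbx3 and Scn4b were lost (limma adjusted p = 0.0521, 0.159, 0.103, 0.0539 and 0.0655). Leaving out each mouse in turn gave 7874 to 7991 genes called, 971 to 1038 beyond 2-fold, 7156 to 7450 in idKO mice and 68 to 122 for the genotype effect. Depth limits the low genes: with 3 or fewer reads in a chamber only a bound or a wide counting interval can be given.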
